A study of Mus musculus with 16 samples.

Results

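The cytosolic ribosomal protein genes encode the protein subunits of the ribosome that works outside mitochondria. They were taken as the protein-coding genes named Rpl or Rps with a number (and, where present, a final a, x, l or y) together with Rpsa, Rplp0, Rplp1 and Rplp2, on chromosomes 1 to 19 and X. The rule gave 81 of 21631 protein-coding genes, 50 of the large subunit (Rpl and Rplp) and 31 of the small subunit (Rps and Rpsa). They lay on 19 chromosomes, with 4 on X. Chromatin immunoprecipitation sequencing (ChIP-seq) had been done on satellite cells, which are muscle stem cells, grown in culture from the hindlimb of C57BL/6 mice. One antibody recognised H3K27ac, an acetylation of histone H3 found at active promoters and enhancers, and the other MyoD, the myogenic transcription factor that binds E-box sequences. Each antibody was used on 2 control and 2 LncMyoD-KD libraries, LncMyoD being a long noncoding RNA, and the 8 input libraries were not analysed here.

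Both groups were cells of the C57BL/6 strain with no other allele named in the labels, and the knockdown used small interfering RNA for 48 h. The treatment text is the same for all samples, so only title and genotype mark a library as control, and the sources used here do not give the reagent used on control cells. Whether the 2 replicates of a group stem from different animals or cultures is not in the labels, and their spread may be technical. With no RNA measurement, neither the depletion of LncMyoD nor the expression of any ribosomal protein gene could be checked. The H3K27ac lists held 39964 to 54082 peaks and the MyoD lists 13146 to 17818, the lowest number being that of knockdown 2 for both antibodies. Read depth is unknown. All 8 satellite cell and myoblast markers examined, among them Pax7, Myf5 and Myod1, had an H3K27ac region at a gene end in every list. Of 12 markers of endothelial, immune, fibro-adipogenic and smooth muscle cells, 5 had one (Tek, Cd68, Dpt, Ly6a and Rgs5), while Pecam1, Cdh5, Ptprc, Adgre1, Pdgfra, Myh11 and Pdgfrb had none.

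Most ribosomal proteins are made in equal amounts for each ribosome, and the genes of the family are spread over the genome rather than clustered. The genes are short, are transcribed in nearly every cell, and commonly start transcription at a C inside a run of pyrimidines, the terminal oligopyrimidine (TOP) motif, through which mTOR and Larp1 control translation of the messenger RNA. Many of their introns carry small nucleolar RNAs (snoRNAs), which guide the modification of ribosomal RNA.

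The start sequences below give examples of this run, chosen because they have it, and the starts of 2 paralogs with restricted expression that lack it. RefSeq promoter entries of build GRCm38.p6 were found for 61 of the 81 genes, and each line gives 15 bases before the transcription start and 15 from it on. Capitals mark the unbroken run of C or T that opens at a C start base. The first 5 genes had H3K27ac at the start in all 4 lists, and Rpl3l and Rpl10l had none there.
Rps6 (chr4:86857353-86857382, minus strand): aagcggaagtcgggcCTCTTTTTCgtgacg
Rpl15 (chr14:18270972-18271001, minus strand): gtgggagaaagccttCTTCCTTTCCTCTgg
Rps18 (chr17:33955651-33955680, minus strand): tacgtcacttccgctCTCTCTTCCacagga
Rpl38 (chr11:114668565-114668594, plus strand): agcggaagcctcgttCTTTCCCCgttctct
Rplp2 (chr7:141447636-141447665, plus strand): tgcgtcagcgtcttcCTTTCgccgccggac
Rpl3l (chr17:24727811-24727840, plus strand): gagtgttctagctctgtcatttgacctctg
Rpl10l (chr12:66284387-66284416, minus strand): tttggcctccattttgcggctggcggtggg

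The annotated starts of the 57 ribosomal protein genes with H3K27ac at the start differed in composition from those of the 7588 genes acetylated there in all 4 lists. The base at the start was C in 33.3% of the 57 and in 14.6% of the 7588, and a C followed by pyrimidines in a run of at least 4 opened 21.1% against 3.44%. Among the genes shown, the run was 13 bases in Rpl15, 9 in Rps6 and Rps18, 8 in Rpl38 and 5 in Rplp2. Only 12 of the 57 acetylated members had such a run, and Rpl19, Rpl4 and Rpl41 lacked it like Rpl3l and Rpl10l. Rpl32l, an unacetylated gene, opened with a run of 10, so the run was not limited to acetylated starts. Start sites were taken from the annotation and were not mapped in these cells. Over 250 bases before and 50 after the start, both strands, CCGGAA, the core bound by ETS factors such as GABP, occurred in 50.9% of the 57, in 33.4% of the acetylated starts and in 19.3% of all 17274. AAGATGG, the core bound by YY1, occurred in 14.0% against 8.25% of acetylated starts. The GC box GGGCGG was found in 59.6% against 68.7%, and TATAAA in 8.77% against 6.14%. The E-box CANNTG, of which CAGCTG is 1 form, was in 50.9% against 60.3%, and CAGCTG itself in 3.51% against 14.3%. These matches describe letters only, and binding of ETS factors or YY1 was not measured.

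H3K27ac covered nearly all of the ribosomal protein genes in both groups. A region was made wherever peaks of the 4 lists overlapped or touched, and a gene was counted where a region lay within 1 kb of either annotated end. Such a region was present in all 4 lists at 77 of the 81 genes, against 44.3% of all protein-coding genes, and in any list at 78, against 51.6%. By library, 78 genes had one in control 1, 77 in control 2, 78 in knockdown 1 and 77 in knockdown 2. All 31 small-subunit genes and 47 of the 50 large-subunit genes had a region. Transcription starts gave the same picture: 57 of the 61 genes with a promoter entry had an H3K27ac peak within 1 kb of the start in every list, against 43.9% of all starts.

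The genes outside this pattern were mostly paralogs with restricted expression. Rpl10l, a testis paralog of Rpl10, Rpl39l, a testis paralog of Rpl39, and Rpl32l had no H3K27ac at either gene end. Rpl39l held a region inside the gene (chr16:10172326-10173492), 2098 bp from its start, with fold enrichments of 5.21 and 5.92 (controls) and 5.09 and 3.45 (knockdown). Fold enrichment is the value the authors' peak caller gave to each peak, and it is used here to describe peaks and to rank them within a list. Where folds of the groups are said to overlap, raw values are meant, and the lists differ in their folds as a whole. Rpl3l, the paralog of Rpl3 found in striated muscle, had no peak within 1 kb of its start. Its only region present in every list was 587 bp wide (chr17:24735832-24736418) at the far end, beside Msrb1, with folds of 3.35, 3.85, 3.99 and 4.46. By contrast Rps27l, a p53-responsive paralog of Rps27, had control folds of 13.4 and 11.8 and knockdown folds of 12.4 and 10.8, within the range of the common genes. The rule gave no gene named Rps4l.

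Rpl18, the remaining gene, had weak gene-end regions in control 1 and knockdown 1 only, and its start lies inside the annotated gene span. At that start a region of 2779 bp (chr7:45717019-45719797) was present in all 4 lists, with control folds of 14.7 and 14.2 and knockdown folds of 14.9 and 12.4. Rpl19, a large-subunit protein at the interface with the small subunit, is annotated in the same way. Its start region (chr11:98025694-98028463) had folds of 16.9, 21.0, 21.3 and 16.7, a mean percentile of 98.0 among all peaks, the highest of the 57 starts. The region within 1 kb of its gene end, shared with Cacnb1, was lower, with folds of 12.6, 13.3, 13.3 and 10.6. Counting regions anywhere over the gene, a choice made after these values were seen, 79 of the 81 genes had H3K27ac in every list.

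Acetylation of the ribosomal protein genes was strong but seldom at the very top of a list. The median fold over genes was 13.4 in control 1, 13.3 in control 2, 14.6 in knockdown 1 and 11.3 in knockdown 2. The same medians over all genes with a gene-end peak were 9.11, 9.17, 10.0 and 8.54. Ranked among all peaks of the same list, the genes' strongest peaks had median percentiles of 92.4, 90.7, 92.6 and 87.9, against 80.4, 80.1, 81.7 and 76.1 for all genes with a peak. Knockdown 2, the list with the fewest peaks, was the lowest for ribosomal protein genes and for all genes alike. Averaged over lists, 72 genes reached the 75th percentile, 44 the 90th and 6 the 95th. Among all genes acetylated in all 4 lists the shares were 62.7%, 26.8% and 12.4%. The genes were therefore concentrated in a narrow band, 38 of them between the 90th and 95th percentiles.

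**Figure D1:**
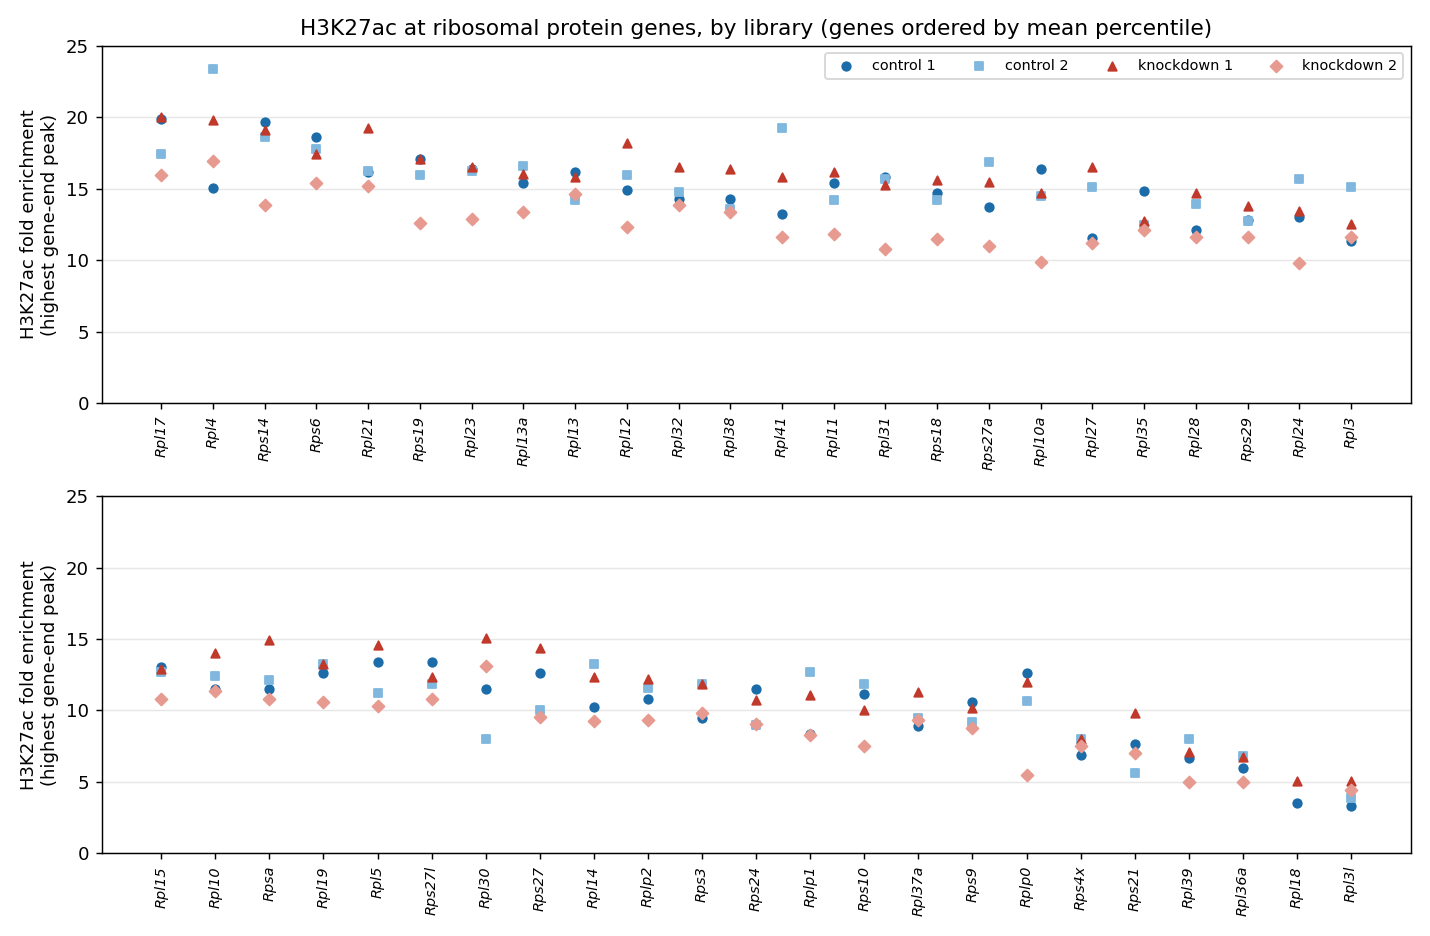
H3K27ac fold enrichment of the strongest gene-end peak (vertical axis, linear, per list) for 47 of the 78 ribosomal protein genes with one, those named in the text, ordered by mean percentile over 2 panels, with 1 symbol per library. The symbols of most genes lie between 10 and 20, and the X-linked Rps4x, Rpl39 and Rpl36a, with Rps21, Rpl18 and Rpl3l, close the series at the low end.

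Among the strongest small-subunit genes were Rps14, Rps6 and Rps19. Rps14 had control folds of 19.7 and 18.6 and knockdown folds of 19.1 and 13.9. Rps6, the substrate of the S6 kinases, had 18.6 and 17.8 against 17.5 and 15.4. In both genes knockdown 2 was the lowest library and knockdown 1 lay near the controls. Rps19, the gene most often mutated in Diamond-Blackfan anaemia, had 17.1 and 16.0 against 17.1 and 12.6. Rps3, a protein at the entry of the mRNA channel, was weaker with 9.48 and 11.8 against 11.8 and 9.81, and the groups overlapped. Rpsa, which also goes by the name laminin receptor, had 11.5 and 12.1 against 14.9 and 10.8.

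By gene-end peaks, Rpl17, Rpl4, Rpl21, Rpl23, Rpl13a and Rpl13 were the strongest large-subunit genes, a ranking that leaves out the start region of Rpl19. Rpl4, which lines the exit tunnel, had control folds of 15.1 and 23.4 and knockdown folds of 19.8 and 17.0, so the controls were the lowest and the highest of the 4. Rpl17 had 19.9 and 17.5 against 20.01 and 15.9. Mean percentiles of the 6 genes ran from 94.7 for Rpl13 to 97.6 for Rpl17. Rpl13a, which also acts outside the ribosome in the interferon response, had 15.4 and 16.6 against 16.0 and 13.4. Rpl5 and Rpl11 bind 5S ribosomal RNA and, when free, the p53 regulator Mdm2. Rpl11 had 15.4 and 14.2 against 16.2 and 11.9, and Rpl5 had 13.4 and 11.2 against 14.6 and 10.3, with overlapping groups in both. Medians of the mean percentile were 91.0 for large-subunit and 90.3 for small-subunit genes, which is less than the range between libraries.

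The stalk genes, whose products Rplp0, Rplp1 and Rplp2 form the arm that recruits elongation factors, were all below the median of the family. At its start, Rplp0 had control folds of 12.6 and 10.7 and knockdown folds of 12.0 and 4.92, so knockdown 2 alone stood apart. Rplp1 had 8.37 and 12.7 against 11.1 and 8.28, and Rplp2 had 10.8 and 11.5 against 12.2 and 9.30. In both of these the control and knockdown values overlapped. Mean percentiles of the strongest gene-end peak in each list were 78.1, 81.8 and 85.4, where knockdown 2 entered for Rplp0 with a region beyond the far gene end, at 5.48.

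The genes on X were the other low set. Rpl10, a late-joining protein of the large subunit, was within the family's range with folds of 11.5, 12.4, 14.0 and 11.3 and a mean percentile of 89.3. Rps4x stood at 6.88, 7.99, 8.01 and 7.52 and a mean percentile of 72.1. Rpl39 reached 63.3 and Rpl36a 59.95, the latter with control folds of 5.95 and 6.81 and knockdown folds of 6.73 and 4.97. The 4 X-linked genes had a median of 67.7 against 91.0 for the 73 autosomal ones, and all acetylated X-linked genes had 67.2 against 81.2 for autosomal genes. Of the 4, Rpl10 was nearest the autosomal median of the family. The labels used here do not state the sex of the animals, and its part in these values was not tested. The remaining genes of the low end were Rps21 at 69.4, Rps9 at 81.4, Rpl37a at 81.6 and Rps10 at 81.7.

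**Figure D2:**
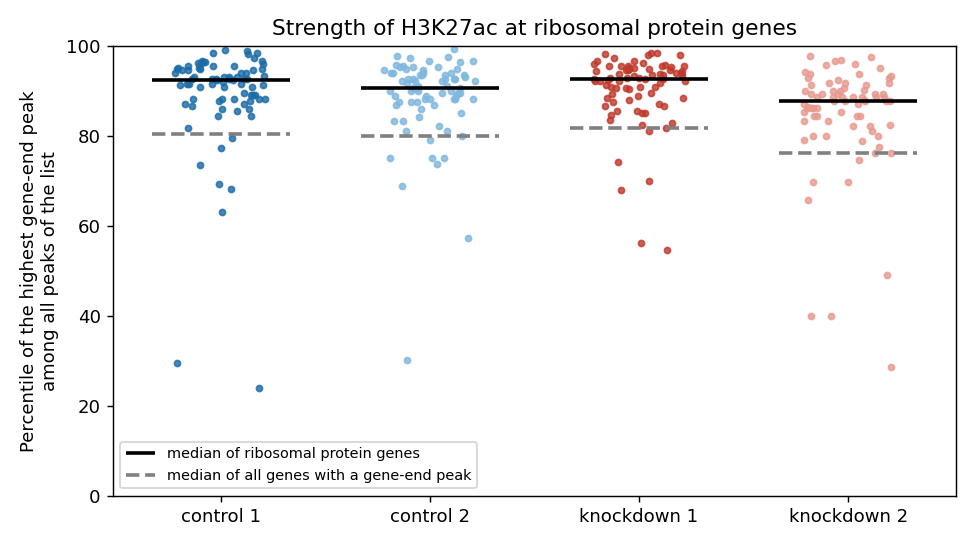
Percentile of the strongest gene-end H3K27ac peak among all peaks of its list (vertical axis) in each library, with 1 point per ribosomal protein gene. Solid lines mark the family's medians of 92.4, 90.7, 92.6 and 87.9, and dashed lines the lower medians of all genes with a gene-end peak.

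The acetylated regions were wider at the median than those of all genes and covered a large share of these short genes. Leading regions, the strongest at each gene, had a median width of 2525 bp (middle 50% from 1896 to 3063 bp, n = 77). The leading regions of all genes had a median of 1806 bp (n = 8059), and all 26113 regions present in every list had 1676 bp. The median gene was 3175 bp long, against 17329 bp for all protein-coding genes. A leading region therefore covered 54.7% of its gene at the median, against 4.64% over all genes. Of the 77 genes, 8 lay wholly inside theirs, against 2.02% over all genes. The widest were those of Rpl12 (6732 bp), Rpl3 (6188 bp), Rpl24 (5456 bp), Rpl10a (5225 bp) and Rpl13a (4211 bp). Several of these reach a neighbour: the Rpl12 region ends at Lrsam1, that of Rpl24 at Zbtb11 and that of Rpl10a at Fance and Tead3. At Rpl3, whose product shapes the peptidyl transferase centre, the region covered 93.2% of the gene without another gene's end. In all, 26 of the 77 regions reached another gene's end, close to the 33.6% of all genes. Narrowest were Rpl3l (587 bp), Rpl36a (1150 bp), Rps21 (1206 bp), Rps24 (1278 bp) and Rps29 (1434 bp). Across the 77 genes, Spearman's rho was 0.30 between width and mean percentile and 0.09 between gene length and width, as a description of points that share libraries.

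A total of 29 ribosomal protein genes held 58 snoRNA genes, while 1.72% of all protein-coding genes held any. Hosts and the rest had similar acetylation: the median of the mean percentile was 91.0 for the 29 hosts and 90.8 for the other 48, with median widths of 2559 and 2430.5 bp. Rpl4 with 5 snoRNAs and Rpl17 with 3 were among the strongest genes, and so were Rps14 and Rps6 with none.

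The strongest acetylation lay downstream of the start. At the 57 starts the summit of the strongest peak had a median offset of 275 and 313 bp (controls) and 261 and 295 bp (knockdown). Over all genes the medians were 201, 196, 184 and 203 bp. The summit was downstream in all 4 lists at 43 of the 57 genes, and at 60.3% of the 7588 acetylated starts. It was upstream in every list at 3 genes, Rpl4, Rpl10 and Rpl28, against 20.8% of the acetylated starts. At Rpl4 the offsets were -351, -333, -293 and -338 bp, similar in the 4 libraries.

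**Figure D3:**
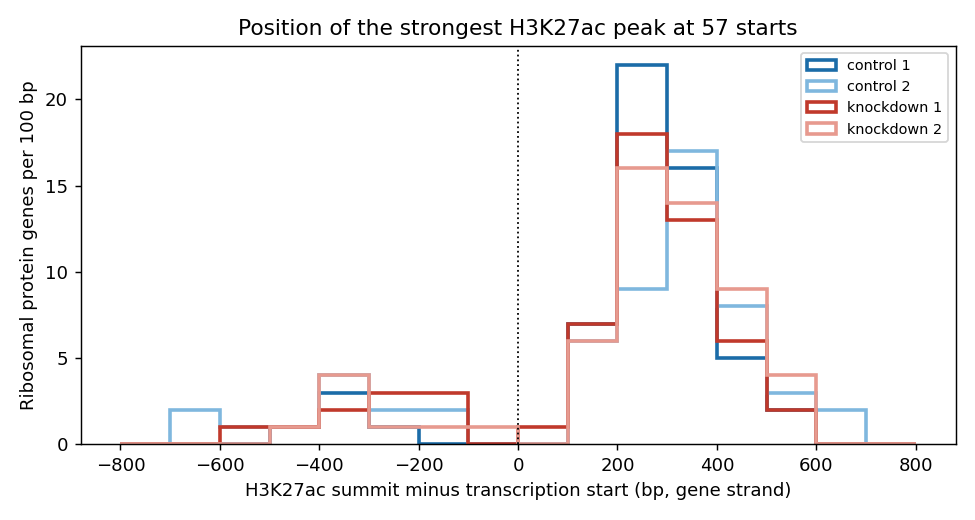
Distance from the annotated transcription start to the summit of the strongest H3K27ac peak within 1 kb (horizontal axis, bp, positive downstream) at 57 ribosomal protein genes, counted in bins of 100 bp, with 1 outline per library. All 4 outlines peak downstream of the start, around their medians of 261 to 313 bp, and a small group lies upstream.

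The comparison of knockdown with control asked whether acetylation at the ends of these genes changed with LncMyoD. Of 137 distinct H3K27ac regions at gene ends, 89 were in all 4 lists, 7 in 3, 6 in 2 and 35 in 1. Over all 59960 regions the counts were 26113, 6542, 7368 and 19937. Regions of the 137 that fell short of 4 lists were small, with a median width of 249 bp and a highest fold of 5.92. None was control-only (both controls, neither knockdown), against 1.46% of all regions, and none knockdown-only, against 0.769%. All 7 family regions in 3 lists were missing from knockdown 2, and so were 5092 of the 6542 over all regions. Without knockdown 2 there were 13 regions in knockdown 1 and neither control, and without control 1 there were 18 in control 2 and neither knockdown. Without control 2 there were 4 in control 1 and neither knockdown, and without knockdown 1 there were 7 in both controls and not in knockdown 2. Such counts then rest on a single library of a group. Their share over all regions was not computed with a library left out, so these counts have no background. In bulk chromatin, fewer acetylated cells and less acetylation per cell cannot be told apart. The exact permutation test of 2 against 2 libraries cannot give a p below 0.333, so that test could not reach significance, and the counts are given as a description.

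Strength was compared by ranking the folds of the 26113 common regions within each list. Ranks can separate groups whose raw folds overlap, as at Rpsa and Rpl13a. Of 77 leading regions, 10 ranked higher in both controls than in both knockdown lists, against 15.9% of all regions and 13.3% of all leading gene-end regions. These were Rpl13a, Rpl31, Rps27a, Rpl10a, Rpl24, Rpl15, Rpl19, Rps10, Rpl39 and Rpl36a. The regions of Rpl19 and Rpl24 were those toward Cacnb1 and Zbtb11, 2977 and 4538 bp from the genes' own starts, and at the Rpl19 start the folds of the groups overlapped. Another 6 ranked higher in both knockdown lists, against 16.4% and 14.6%: Rpl32, Rpl10, Rpsa, Rpl30, Rpl37a and Rpl3l, the last of these at its far end, 8006 bp from the start. For the other 61 the groups overlapped. As shares of the 77 regions, 13.0% and 7.79% were no larger than the background. With regions at transcription starts only, 8 and 3 of 57 were counted. The median rank difference, knockdown minus control, was -0.67 percentile points for the family and 0.33 for all leading regions.

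Among the regions that ranked higher in both controls, Rps10, a protein of the small-subunit head, had control ranks of 77.5 and 76.0 and knockdown ranks of 62.2 and 56.5. Rpl39, the exit tunnel protein on X, had 46.1 and 50.2 against 38.5 and 22.9. Rpl24, Rpl10a and Rpl36a differed by -11.1, -10.1 and -9.30 points. In the opposite direction Rpl30 led with control ranks of 79.3 and 51.3 and knockdown ranks of 86.5 and 88.4, a difference of 22.2 points that control 2 widened. Rpl37a, Rpl3l, Rpsa and Rpl10 followed with 7.10, 5.13, 4.36 and 3.31 points. The lowest difference of all, -29.1 points at Rplp0, came from knockdown 2 alone, since the groups overlapped there (83.8 and 69.8 against 74.1 and 21.2). Leaving out control 2 raised the first count to 42 of 76 regions, above its background of 33.2%. The second rose to 14, below its background of 33%, and control 1 was then the only control list. Leaving out control 1 gave 20 and 30 of 77 (backgrounds 34.1% and 35.8%). Leaving out knockdown 1 gave 28 and 12 (32.4% and 34.4%), and leaving out knockdown 2 gave 21 and 20 (31.4% and 30.5%). With 3 libraries the background itself was thus 30.5 to 35.8%.

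MyoD was rare at ribosomal protein genes. A MyoD region lay within 1 kb of a gene end in any list at 9 of the 81 genes, against 14.9% of all genes, and in all 4 lists at 4, against 6.64%. Since acetylated genes carry MyoD more often, the closer comparison is with genes that had H3K27ac in all 4 lists. There the family had MyoD at 9 of 77 genes (11.7%) in any list and at 4 (5.19%) in every list, against 28.0% and 13.2%. At the start itself MyoD was within 1 kb in any list at 5 of the 57 acetylated genes, against 24.1% of acetylated starts, and in every list at 1, against 10.5%. By library the gene-end counts were 6 and 8 of 81 genes (controls) and 5 and 5 (knockdown). Over all genes the shares were 11.7% and 12.0% (controls) and 10.1% and 8.48% (knockdown), also lower in the knockdown lists. Over all acetylated genes the share with MyoD rose with H3K27ac strength, from 19.9% below the 60th percentile to 46.2% from the 95th. Of the 38 ribosomal protein genes between the 90th and 95th percentiles 6 had MyoD, where all genes gave 33.7%, and of the 6 strongest none did.

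Of the 61 genes with a promoter entry, only Rpl41, which encodes a very short basic protein of the large subunit, had MyoD at its start in every list. Its region (chr10:128549087-128549517) had control folds of 9.91 and 9.60 and knockdown folds of 9.99 and 9.40. The 4 values were nearly equal. The summits lay at -117, -130, -154 and -118 bp from the start, and the 250 bases upstream of Rpl41 hold 1 E-box, whose first base is at -138. It is printed in capitals.
Rpl41 upstream (chr10:128549169-128549418, minus strand): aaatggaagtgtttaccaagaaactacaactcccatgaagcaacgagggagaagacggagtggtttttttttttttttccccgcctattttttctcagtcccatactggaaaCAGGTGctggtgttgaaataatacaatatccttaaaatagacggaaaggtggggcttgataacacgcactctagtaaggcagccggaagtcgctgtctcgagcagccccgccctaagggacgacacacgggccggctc
E-boxes were also present without MyoD. The same window of Rpl3l holds E-boxes at -145, -43 and -20, again in capitals, and had neither a MyoD nor an H3K27ac peak within 1 kb of the start in any list.
Rpl3l upstream (chr17:24727576-24727825, plus strand): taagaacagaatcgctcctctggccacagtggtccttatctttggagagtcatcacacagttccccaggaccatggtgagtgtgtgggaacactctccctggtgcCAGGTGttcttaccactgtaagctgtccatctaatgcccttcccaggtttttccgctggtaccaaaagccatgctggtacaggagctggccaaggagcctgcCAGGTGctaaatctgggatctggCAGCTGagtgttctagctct

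The other 3 genes with MyoD in every list had it away from the start. At Rpl19 the region (chr11:98020998-98021599) lay 404 bp outside the gene end by Cacnb1, at a mean of -5396 bp from the start, with control folds of 17.2 and 15.2 and knockdown folds of 13.3 and 13.7. Both controls were above both knockdown values as folds, but the ranks among common MyoD regions overlapped (92.4 and 88.8 against 81.3 and 89.2). The promoter of Rpl19, shown here for its strong acetylation without MyoD, carries the ETS core in its reverse form, in capitals.
Rpl19 upstream (chr11:98026460-98026709, plus strand): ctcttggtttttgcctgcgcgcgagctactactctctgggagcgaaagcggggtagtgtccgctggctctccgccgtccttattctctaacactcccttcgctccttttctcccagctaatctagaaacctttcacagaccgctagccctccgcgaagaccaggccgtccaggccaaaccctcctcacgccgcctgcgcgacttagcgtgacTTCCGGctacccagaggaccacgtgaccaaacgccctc
At Rps18, a protein of the small-subunit head, the region lay at the far end beside B3galt4 (chr17:33951076-33951703), with 10.6 and 14.9 against 12.2 and 9.01. Rpl14 had its region near the far end (chr9:120573984-120574450), with 6.28 and 7.95 against 6.63 and 7.84. The groups overlapped at both genes.

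The remaining MyoD regions were weak and present in fewer lists. Rpl35 had one in 3 lists, with 5.95 and 5.63 in the controls and 5.88 in knockdown 2. A second region of Rps18, toward Vps52, was in 3 lists with 4.96, 5.63 and 4.05, and missing from knockdown 2. Rpl27 had one in control 2 and knockdown 1, at 5.30 and 4.42. The regions of Rpl24 and Rpl38 were in control 2 alone, both at 4.31, and those of Rps27a and a second one of Rpl41 in control 1 alone, at 4.30 and 5.65. Rps27a encodes a fusion of ubiquitin with a ribosomal protein, and its MyoD region was the only one of the 11 without an overlapping H3K27ac region. None of the 11 was control-only, against 4.55% of all MyoD regions, or knockdown-only, against 0.729%. Inside Rpl3, more than 1 kb from either end and noticed only after the values were seen, a region (chr15:80080012-80080297) was in both controls, at 4.30 and 5.63, and in neither knockdown list. Of the 4 leading regions in every list, Rpl41 ranked higher in both knockdown lists (61.2 and 60.6 against 62.7 and 67.5) and none in both controls, against 13.9% and 18.2% of leading MyoD regions.

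**Figure D4:**
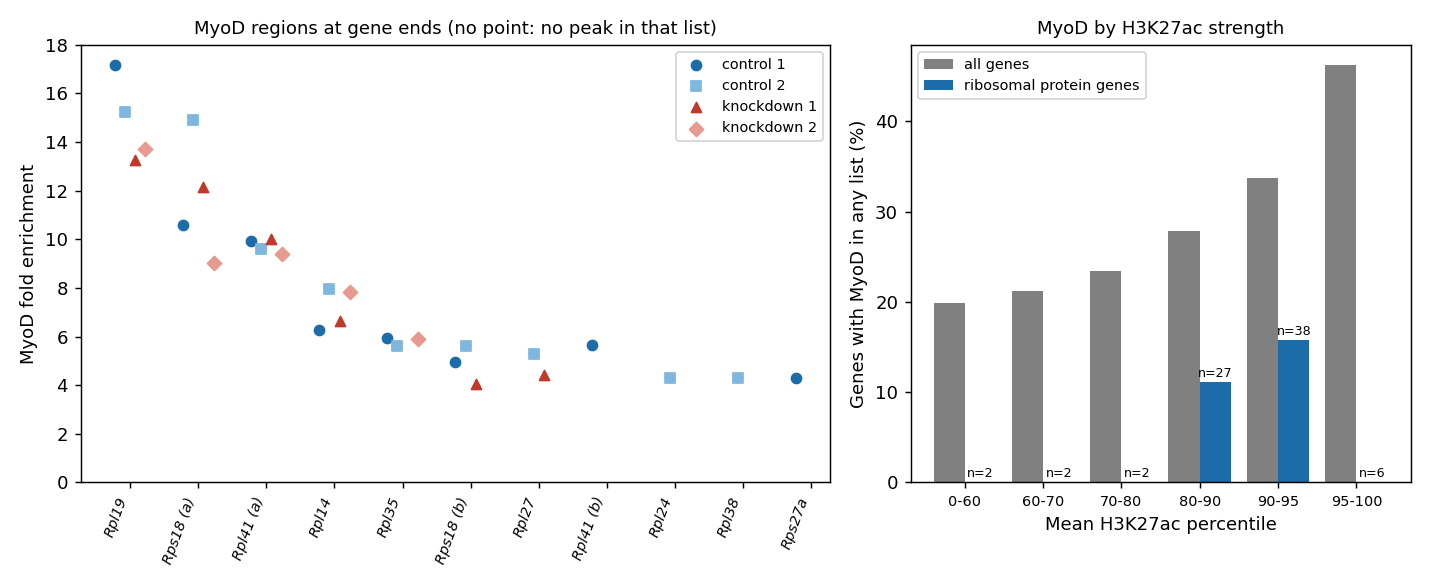
Left, MyoD fold enrichment (linear axis, 1 symbol per library) of the 11 regions at ribosomal protein gene ends, a and b being separate regions of a gene. Right, percentage of genes with MyoD in any list (bars from 0) by mean H3K27ac percentile for all genes (gray) and ribosomal protein genes (blue, n above each), which reach 46.2% for all genes in the highest band and 0 of 6 for the family.

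Related gene lists were described in the same way, by the gene-end window only. That window can miss a start inside the annotated gene span, as at Rpl18. A gene counted without a region may therefore still be acetylated at its start. Ribosomal proteins under other symbols had H3K27ac at a gene end in all 4 lists at 7 of 8 genes, including Fau and Rack1, the exception being Rps27rt. Translation factors and other TOP genes had it at 17 of 17, with median percentiles of 96.1 and 94.3 (controls) and 95.5 and 92.8 (knockdown), above the ribosomal protein genes in each list. Eef1a1, which delivers aminoacyl-tRNA to the ribosome, had folds of 21.9, 21.9, 23.7 and 17.7. Ribosome assembly and RNA polymerase I genes had it at 19 of 20, with Ubtf the exception, and regulators of ribosome production at 12 of 13, with Larp1 the exception. The mitochondrial ribosomal protein genes, which serve the separate ribosome of mitochondria, had it at 70 of 78, with lower medians of 76.8, 76.4, 78.8 and 69.7 and a median width of 1366 bp. Genes with proteasome symbols (Psma, Psmb, Psmc or Psmd and a number) had it at 35 of 40, with medians of 87.2, 86.4, 88.0 and 80.2. Median widths were 2593 bp for the TOP list and 2586.5 bp for the regulators, beside 2525 bp for the ribosomal protein genes. Those of the other-symbol, assembly and proteasome lists were 2030, 1989 and 1667 bp. Of genes with H3K27ac in all 4 lists 28.0% had MyoD in any list, and of all genes 14.9%. MyoD was present in any list at 5 of 17 translation factors and other TOP genes (29.4%) and 4 of 13 regulators (30.8%). Ribosomal proteins under other symbols had MyoD at 2 of 8 genes, and ribosome assembly and RNA polymerase I genes at 2 of 20. MyoD was present at 13 of 78 mitochondrial ribosomal protein genes (16.7%) and 6 of 40 genes with proteasome symbols (15%). Both counts of the latter list include Psmc3ip, a meiotic recombination cofactor and not a proteasome subunit. In every list, MyoD was at 4 of 78 mitochondrial ribosomal protein genes (5.13%), 2 of 40 with proteasome symbols (5%) and 1 of 20 assembly genes (5%). The cytosolic family, at 4 of 81 (4.94%), was close to these. Higher shares were found at 2 of 17 TOP genes, 3 of 13 regulators and 1 of 8 genes under other symbols. Myc, a regulator of ribosome production, carried MyoD in every list, with folds of 6.61, 8.61, 8.25 and 8.62.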

How the data were processed

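H3K27ac and MyoD peak lists of 8 ChIP libraries, 1 per library, were used as the authors deposited them, and peaks had not been pooled over replicates. The submitters' processing notes name build mm10 and MACS2 2.1.1, with Bowtie2 2.3.2, bedtools 2.26.0, SAMtools 1.3 and Picard 2.9.2. Tool options: not given in the sources used here. For every deposited peak there is a fold enrichment, a linear ratio over background. The deposited lists also give −log10 p-values and −log10 q-values (lowest 1.30) and a whole-number score, which was not used. There are no read counts, so depth is unknown and no interval was given.

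Peaks on chromosomes 1 to 19 and X were merged per antibody (gap 0 bp, at least 1 shared base for presence) and assigned to genes with an end within 1000 bp, by RefSeq's GRCm38.p6 gene table. The leading region of a gene was that in most lists, then with the highest mean fold. A percentile is the share of all peaks of a list with a fold no higher than that of the gene's strongest peak. Starts came from RefSeq promoter entries (250 bases before to 50 after). In all, 20 genes had no entry, among them Rps27a, Rpl30, Rplp1, Rps20, Rpl23a, Rps14, Rps29, Rpl3, Rpl36, Rpl7, Rpl21, Rpl17, Rpl29, Rpl32 and Rpl8. Computation used Python 3.11.15, numpy 2.4.6, pandas 2.3.3, scipy 1.17.1 and matplotlib 3.10.9, and merging and assignment were tested on simulated data.

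The genes and lists were chosen with earlier results of these data known. Genes named are the 10 highest and 10 lowest by mean percentile, those without H3K27ac, those with MyoD, the 5 largest rank differences in each direction, the 5 widest and narrowest regions, minor paralogs and a set of examples. A few genes that this rule or the lists hold are not reported by name here. Lists are described by counts beside the same share of all genes, with no test.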

Additional observations from a re-analysis of the deposited data

How the results depend on the processing

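Across 14 alternatives, 103 of 137 recomputed values stayed within 1.5 times the reported count or within the spread between libraries. They included every count of genes with H3K27ac in all lists used (57 to 79). The 57 was at the transcription start only, out of the 61 genes with a promoter entry. The other settings covered all 81 genes, and those without a library asked for presence in the remaining lists. A −log10 q of at least 5 lowered the family's median percentile to 86.5 and made 1 MyoD region control-only. Merging peaks within 1000 bp widened the median region to 2853 bp. Genes with MyoD in all lists and in any list numbered 1 and 5 at the transcription start only, out of 61 with a promoter entry. They numbered 1 and 4 within 200 bp of a gene end, and 7 and 16 within 5 kb. For these distances no share over all genes was computed, so the counts have no background. Regions ranked higher in both knockdown lists fell to 3, of 57 ranked, at the start only. Group-only regions numbered 1 for H3K27ac control-only with equal numbers of peaks per list, with presence requiring 50% of a region to be covered (1) and within 5 kb (1). Within 5 kb there were also 1 H3K27ac knockdown-only and 2 MyoD control-only regions, and over the gene body, an alternative chosen after seeing the data, 1 MyoD control-only region. With a replicate block, comparing same-numbered lists only, 21 regions ranked higher in the controls (25.8% of all regions) and 13 in the knockdown (26.5%). The labels do not say that numbers pair libraries, and the replicate deviations correlated at 0.13 over 26113 regions. Leaving out each library in turn gave 20 to 42 regions higher in the controls and 12 to 30 higher in the knockdown. It also gave 0 to 18 H3K27ac control-only, 0 to 13 H3K27ac knockdown-only and 1 to 2 MyoD control-only regions. The cause of these differences was not tested. For the group-only counts under the alternatives, no share over all regions was computed. Without read counts, a missing peak cannot be told apart from too little depth.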
